A study of Mus musculus with 18 samples.

Results

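The set described here holds 10 genes, 7 chemokines (Cxcl1, Cxcl2, Cxcl5, Cxcl10, Cxcl16, Ccl2 and Ccl20) and 3 members of the interleukin-1 family (Il1a, Il1b and Il1rn), taken by gene symbol from the count columns. All 10 were found in each of the 3 deposited tables, of 24421 rows in each. Per the labels, the RNA came from mouse esophageal organoids, epithelial cultures grown in Matrigel from digested esophagus. Every culture carried Trp53-/-, overexpressed Myc (Myc OE) and held the guide sgCdkn2a, so no library is of unmodified epithelium. The premalignant organoids were sgTgfbr2 (n = 4, from the lines numbered sgTgfbr2_2 and sgTgfbr2_1 with 2 libraries each) or sgScr, the control guide (n = 3). The tumor organoids were sgTgfbr2 (n = 2) or sgScr (n = 3). Further tumor organoids of the sgTgfbr2 genotype received pinaverium bromide (PB, n = 3) at 2 µM after 72 h of culture, or DMSO as vehicle (n = 3). PB is known as a blocker of calcium channels. The labels do not give the guide or the number of clones behind a numbered line, nor the animals behind the replicates. The spread that p-values rest on is thus that between libraries and may be technical. The medium listed for every library held A83-01 at 2 µM, which blocks the TGF-beta type I receptor, together with Wnt3A, R-spondin, Noggin and EGF.

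Chemokines are small secreted proteins that direct the movement of leukocytes through G protein-coupled receptors. In the mouse, Cxcl1, Cxcl2 and Cxcl5 bind Cxcr2 and draw neutrophils, Ccl2 binds Ccr2 and draws monocytes, Ccl20 binds Ccr6, Cxcl10 is an interferon-induced ligand of Cxcr3, and Cxcl16 is a membrane-bound ligand of Cxcr6 that can be shed. Il1a and Il1b encode the agonists of the receptor Il1r1, and Il1rn encodes the antagonist that occupies the same receptor. Stratified epithelium stores interleukin-1 alpha, and Il1r1 signalling is known to induce many chemokine genes through NF-kB.

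The 3 Cxcr2 ligands lie close together on chromosome 5 (GRCm38), with Cxcl5 at chr5:90759360-90761624, Cxcl1 at chr5:90891241-90893115 and Cxcl2 at chr5:90903871-90905938, all on the plus strand. Cxcl10 lies farther along the same chromosome at chr5:92346638-92348889 on the minus strand. Ccl20 is at chr1:83116766-83119167 (plus strand), Cxcl16 at chr11:70453983-70459984 (minus strand) and Ccl2 at chr11:82035571-82037453 (plus strand). Il1a at chr2:129299610-129309972 and Il1b at chr2:129364570-129371139 are neighbours on the minus strand, and Il1rn is at chr2:24336853-24351494 on the plus strand.

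The promoter windows of 4 chemokines are printed because these genes moved in different directions under PB. Each is the RefSeq window of GRCm38.p6 from 250 bases before to 50 bases after the start of the gene, 5′ to 3′ on the gene's strand. Capitals mark an NF-kB like motif on either strand in all 4, written as GGG, any 3 bases and TTCC. In Cxcl10 they also mark TGANTCA (AP-1 like) and an interferon response element like motif, written as GAAA, any 2 bases and GAAA. The windows are Cxcl1 at chr5:90890995-90891294 (plus strand), Cxcl2 at chr5:90903649-90903948 (plus strand), Cxcl10 at chr5:92348840-92349139 (minus strand) and Ccl20 at chr1:83116516-83116815 (plus strand).
Cxcl1: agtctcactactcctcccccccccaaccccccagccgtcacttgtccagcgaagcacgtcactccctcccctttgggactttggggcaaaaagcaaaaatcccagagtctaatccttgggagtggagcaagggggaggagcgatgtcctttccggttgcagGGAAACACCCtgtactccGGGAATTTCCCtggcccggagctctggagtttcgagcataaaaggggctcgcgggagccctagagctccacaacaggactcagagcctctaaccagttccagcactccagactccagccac
Cxcl2: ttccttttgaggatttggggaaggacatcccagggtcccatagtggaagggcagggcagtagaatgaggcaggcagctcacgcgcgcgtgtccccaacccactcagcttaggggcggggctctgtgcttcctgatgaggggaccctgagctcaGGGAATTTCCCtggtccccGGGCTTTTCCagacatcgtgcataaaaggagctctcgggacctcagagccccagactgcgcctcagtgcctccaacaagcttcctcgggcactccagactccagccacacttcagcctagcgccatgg
Cxcl10: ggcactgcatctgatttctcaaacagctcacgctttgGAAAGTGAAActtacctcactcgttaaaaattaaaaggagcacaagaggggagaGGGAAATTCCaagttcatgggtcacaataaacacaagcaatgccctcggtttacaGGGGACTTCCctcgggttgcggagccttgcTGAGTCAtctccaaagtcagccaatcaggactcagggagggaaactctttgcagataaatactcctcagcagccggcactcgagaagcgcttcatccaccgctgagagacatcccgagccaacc
Ccl20: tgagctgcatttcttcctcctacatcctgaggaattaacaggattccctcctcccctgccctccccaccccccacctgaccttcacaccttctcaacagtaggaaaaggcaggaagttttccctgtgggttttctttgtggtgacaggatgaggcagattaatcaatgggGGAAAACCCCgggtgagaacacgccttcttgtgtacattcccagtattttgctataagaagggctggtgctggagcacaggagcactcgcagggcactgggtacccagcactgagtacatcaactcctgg
The run GGGAATTTCCC in Cxcl1 and in Cxcl2 is a pair of overlapping matches, with the plus strand match starting and the minus strand match ending the run. Cxcl1 and Cxcl2 held 3 matches each, Cxcl10 held 2 and Ccl20 held 1, on the minus strand. Among the 7 genes of the set with a window (Cxcl1, Cxcl2, Cxcl10, Ccl20, Il1a, Il1b and Il1rn), the NF-kB like motif stood in 5, and it stood in 5.56% of all 32851 windows and in 6.31% of the 27025 genes with a window, counting a gene with a match in any of its windows. TGANTCA, which reads the same on both strands, stood in the windows of Cxcl10, Il1a and Il1rn and in 7.81% of all windows (8.97% of genes). The interferon response element like motif stood in Cxcl10 and in 3.44% of all windows (3.99% of genes), and TTGCNNAA (C/EBP like) stood in none of the 7 and in 10.8% of all windows (12.2% of genes). These matches describe letters, and binding was not measured.

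Libraries held 14993749 to 21784140 counts over 15565 to 16713 detected genes, so 3 counts stand for 0.138 to 0.200 CPM, a level relative to the library total. Tgfbr2 transcripts were lower with the guide and still present, at 95.8 ± 13.6 CPM in sgTgfbr2_2 and 130 ± 2.44 CPM in sgTgfbr2_1 (SD, n = 2 each), against 195 ± 20.8 CPM (SD, n = 3) in premalignant sgScr, and at 69.3 ± 2.64 CPM (SD, n = 2) in tumor sgTgfbr2, against 120 ± 8.76 CPM (SD, n = 3) in tumor sgScr. The libraries labelled tumor organoids of the tumor table held transcripts of many other tissues. Whether these libraries hold tissue beside epithelial cultures was not tested, and they are called tumor organoids here after their label. Their summed immune markers (19 genes in the table) reached 1623 to 1720 CPM in sgTgfbr2 and 1649 to 1769 CPM in sgScr, and their summed fibroblast markers 2974 to 3065 CPM and 3721 to 3926 CPM in the same order. In bulk RNA, a smaller number of cells of a type and less RNA per cell cannot be told apart.

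Per kilobase of exon, which allows levels of different genes to be set side by side, Cxcl5 led the set in both sgTgfbr2 lines, at 201 ± 18.3 CPM per kb in sgTgfbr2_2 and 825 ± 13.2 CPM per kb in sgTgfbr2_1 (SD, n = 2 each). In premalignant sgScr, Cxcl1 at 62.3 ± 10.4 and Cxcl5 at 61.0 ± 8.02 CPM per kb (SD, n = 3) overlapped at the top, followed by Ccl2 at 49.0 ± 8.12 CPM per kb. The order below was Cxcl16, Il1rn, Cxcl2, Ccl20, Il1a, Cxcl10 and Il1b. Tumor sgTgfbr2 libraries were again led by Cxcl5, at 75.1 ± 1.82 CPM per kb (SD, n = 2), whereas tumor sgScr libraries were led by Il1rn, at 12.1 CPM per kb, with Ccl2 next at 7.86 CPM per kb. Under PB the leading gene was Cxcl16, at 39.2 ± 1.03 CPM per kb, against Cxcl1, at 56.2 ± 2.38 CPM per kb, in vehicle (SD, n = 3 each). The annotated exons of Il1rn span several transcript forms, 5535 bases in all, so its level per kilobase is a low estimate relative to a shorter transcript. In CPM, with no length in it, Il1rn had the highest mean in premalignant sgScr (119), tumor sgTgfbr2 (163), PB (163) and vehicle (171). The leading gene of these groups thus depends on the length taken.

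**Figure D1:**
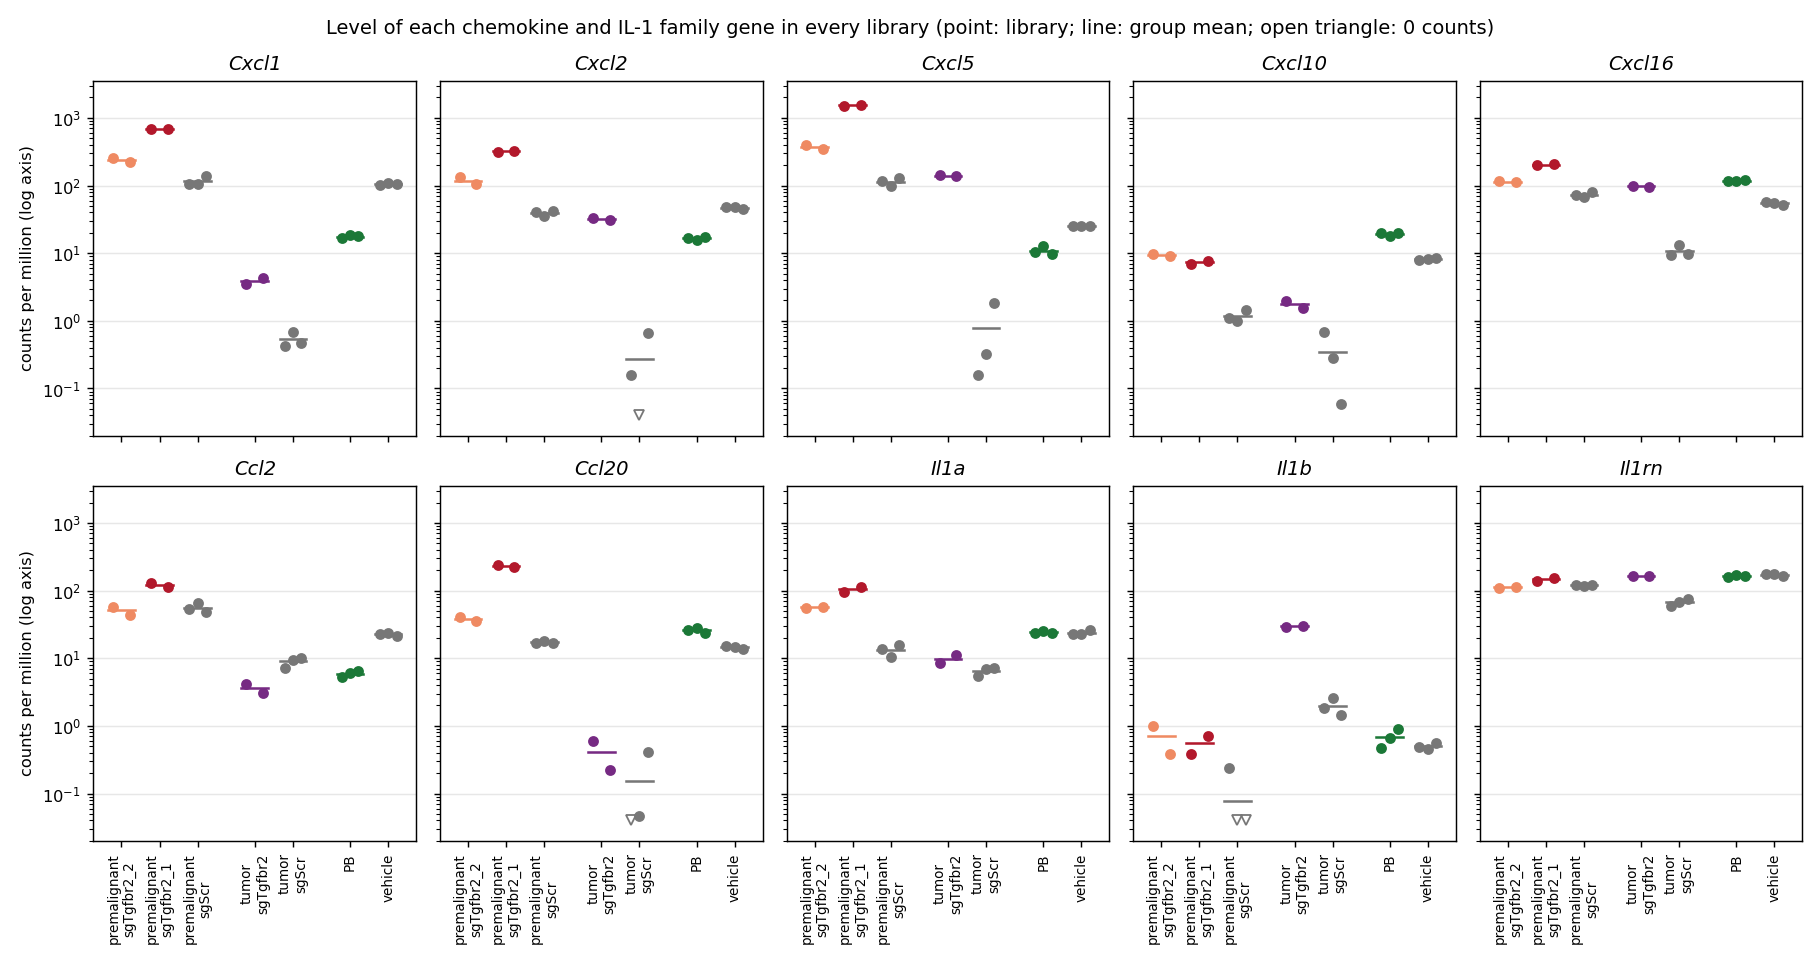
Levels in CPM of the library total (log axis) of each of the 10 genes in every library, with points for libraries, lines for group means and open triangles for libraries with 0 counts. In premalignant organoids the sgTgfbr2_1 libraries sit highest for Cxcl1, Cxcl2, Cxcl5, Cxcl16, Ccl2, Ccl20 and Il1a, and in tumor organoids Cxcl2 and Cxcl5 stand at 31.3 to 142 CPM in sgTgfbr2 libraries, against 0 to 1.84 CPM in sgScr libraries.

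In premalignant organoids most of the set was higher with sgTgfbr2. Of 9 genes that passed the filter on low counts, 7 rose, none fell, and Ccl2 and Il1rn were not called. Over all 13098 genes tested, 22.7% were called higher and 23.5% lower (edgeR quasi-likelihood test, Benjamini-Hochberg adjusted p under 0.05). The median log2 fold change was 2.40 over the 9 genes and -0.0037 over all genes. Il1b was left out of this test by the filter.

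The 3 Cxcr2 ligands of the set rose in both lines. Cxcl5 stood at 398 and 349.8 CPM in sgTgfbr2_2 and at 1519 and 1554 CPM in sgTgfbr2_1, against 115, 98.0 and 128 CPM in sgScr. The sgScr libraries lay below both lines, and the 2 lines lay far apart. With the lines pooled, the log2 fold change was 3.002 ± 0.56 (SE, adjusted p 0.00252), an 8.01-fold higher level. Cxcl2 stood at 132 and 104 CPM in sgTgfbr2_2 and 314 and 324 CPM in sgTgfbr2_1, against 40.8, 35.7 and 41.6 CPM in sgScr. Cxcl1 stood at 259 and 225 CPM in sgTgfbr2_2 and 693 and 681 CPM in sgTgfbr2_1, against 107, 104 and 139 CPM in sgScr. Both genes repeated the order sgTgfbr2_1, sgTgfbr2_2, sgScr with no overlap. The log2 fold changes were 2.40 ± 0.40 for Cxcl2 (adjusted p 0.00140) and 1.92 ± 0.40 for Cxcl1 (adjusted p 0.00455). The sources used here do not say how reads shared by similar members of the Cxcl1, Cxcl2 and Cxcl3 family were counted.

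Ccl20, the ligand of Ccr6, stood at 40.5 and 35.8 CPM in sgTgfbr2_2 and at 237 and 222 CPM in sgTgfbr2_1, against 16.9, 17.7 and 16.8 CPM in sgScr. Its sgScr values were nearly equal to each other, and its lines differed from each other by more than any other gene of the set. The log2 fold change was 2.89 ± 0.69 (adjusted p 0.00817). Cxcl16 stood at 115 and 112 CPM in sgTgfbr2_2 and 198 and 210.2 CPM in sgTgfbr2_1, against 72.4, 66.8 and 79.5 CPM in sgScr, a smaller log2 fold change of 1.05 ± 0.23 (adjusted p 0.00522).

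Cxcl10 was a low transcript with a different order of the lines. It reached 9.66 and 9.22 CPM in sgTgfbr2_2 and 6.84 and 7.79 CPM in sgTgfbr2_1, against 1.11, 1.01 and 1.42 CPM in sgScr. The groups did not overlap, and the log2 fold change was 2.75 ± 0.23 (adjusted p 7.60e-05). Ccl2 stood at 57.7 and 44.1 CPM in sgTgfbr2_2 and 131 and 113 CPM in sgTgfbr2_1, against 54.1, 65.7 and 47.5 CPM in sgScr. Its sgTgfbr2_2 values lay among those of sgScr, and the pooled log2 fold change of 0.56 ± 0.34 missed the threshold (adjusted p 0.209). Without replicate 2 of sgTgfbr2_2, Ccl2 passed it, at 0.80 with an adjusted p of 0.0477.

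Among the interleukin-1 genes, the agonist Il1a rose and the antagonist Il1rn was not called. Il1a stood at 55.4 and 57.6 CPM in sgTgfbr2_2 and 95.8 and 112 CPM in sgTgfbr2_1, against 13.5, 10.3 and 15.6 CPM in sgScr. No sgScr library came near a sgTgfbr2 library, and the log2 fold change was 2.54 ± 0.28 (adjusted p 2.25e-04). Il1rn stood at 110.5 and 114 CPM in sgTgfbr2_2 and 139.8 and 153 CPM in sgTgfbr2_1, against 119.6, 116 and 122 CPM in sgScr. The sgScr values fell between the lines, and the log2 fold change was 0.05 ± 0.12 (adjusted p 0.760). Il1b was close to the limit of detection, with 22 and 6 counts in sgTgfbr2_2 and 7 and 12 counts in sgTgfbr2_1, against 4, 0 and 0 counts in sgScr.

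Immune, endothelial and skeletal muscle markers were low in these libraries, and gastric and glandular markers were higher. The summed immune markers reached 82.9 to 86.7 CPM in sgTgfbr2_2 and 71.7 to 74.5 CPM in sgTgfbr2_1, against 26.7 to 39.3 CPM in sgScr. Of 19 markers in the table, 6 were tested, 3 rose and 1 fell. Cd68 was 42.8 ± 12.9 CPM in sgTgfbr2 (n = 4), against 18.9 ± 6.34 CPM in sgScr (n = 3), and Cd14 was 28.4 ± 6.79 CPM, against 6.71 ± 0.175 CPM (SD). Tyrobp, Lyz2, Adgre1, Csf3r and Cd3e had 0 counts in all 7 libraries, and Ptprc was at most 0.326 CPM. The summed gastric and glandular markers were 1148 to 1224 CPM in sgTgfbr2_2 and 1174 to 1188 CPM in sgTgfbr2_1, against 822 to 871 CPM in sgScr, without overlap between genotypes. Of these 10 markers, 2 were tested, 1 rose and none fell, and Gkn2 and Tff1 had 0 counts in all 7 libraries. Summed fibroblast markers overlapped, at 54.7 to 68.9 CPM in sgTgfbr2_2 and 49.3 to 55.2 CPM in sgTgfbr2_1, against 34.98 to 70.5 CPM in sgScr. Summed skeletal muscle markers were at most 12.2 CPM and endothelial markers at most 2.25 CPM. The summed squamous markers were 10407 to 10699 CPM in sgTgfbr2_2 and 7801 to 7992 CPM in sgTgfbr2_1, against 12973 to 13791 CPM in sgScr. Of the 10 squamous markers, 3 rose and 5 fell. The part of the cells marked by these lists in the result was not tested.

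The lines were then compared with each other. Both were set against the same sgScr libraries, so their changes share those libraries. Of the 10 genes, 8 rose and none fell in sgTgfbr2_2 over sgScr, where 28.9% of 13438 genes were called higher and 29.3% lower. In sgTgfbr2_1 over sgScr all 10 rose, where 24.5% of genes were called higher and 26.9% lower. Cxcl5 had a log2 fold change of 1.65 ± 0.09 in sgTgfbr2_2 and 3.68 ± 0.10 in sgTgfbr2_1, and Ccl20 one of 1.09 ± 0.10 and 3.67 ± 0.09 in the same order. Ccl2 was not called in sgTgfbr2_2, at -0.20 ± 0.15 (adjusted p 0.246), and rose in sgTgfbr2_1, at 1.05 ± 0.14 (adjusted p 3.26e-05). Without replicate 3 of sgScr, Ccl2 was called lower in sgTgfbr2_2, at -0.32 (adjusted p 0.0197).

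The direct comparison of sgTgfbr2_2 with sgTgfbr2_1 called 8 of the 10 genes lower and none higher, where 13.1% of genes were called lower and 13.2% higher. Ccl20 differed most, with a log2 difference of -2.58 ± 0.10 (adjusted p 7.68e-10). It was followed by Cxcl5 at -2.03 ± 0.11 (adjusted p 1.40e-08), Cxcl1 at -1.50 ± 0.12 (adjusted p 7.20e-07) and Cxcl2 at -1.43 ± 0.11 (adjusted p 4.77e-07). Ccl2 differed by -1.25 ± 0.16, Il1a by -0.88 ± 0.13 and Cxcl16 by -0.85 ± 0.09, all past the threshold. Cxcl10 was not called between the lines, at 0.38 ± 0.19 (adjusted p 0.169), nor was Il1b, at 0.43 ± 0.74 (adjusted p 0.707). Il1rn differed by -0.37 ± 0.09 (adjusted p 0.00615), a call that was lost without replicate 2 of sgTgfbr2_1 (-0.32, adjusted p 0.0854) or without replicate 1 of sgTgfbr2_2 (-0.34, adjusted p 0.0799).

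Calls on Il1b and Il1rn within the lines rested on single libraries. Il1rn in sgTgfbr2_1 over sgScr was 0.22 ± 0.08 (adjusted p 0.0303) and missed the threshold without replicate 1 of sgScr (0.22, adjusted p 0.0793) and without either sgTgfbr2_1 replicate (0.27 without replicate 1, adjusted p 0.0650, and 0.16 without replicate 2, adjusted p 0.282). Il1b in sgTgfbr2_1 over sgScr was 2.79 ± 1.00 (adjusted p 0.0300) and missed it without replicate 2 or 3 of sgScr or replicate 2 of sgTgfbr2_1 (2.18, 2.22 and 2.29). Il1b in sgTgfbr2_2 over sgScr was 3.22 ± 0.93 (adjusted p 0.00843) and missed it without replicate 1 of sgTgfbr2_2 (2.33, adjusted p 0.195). Without replicate 1 of sgScr, which held all 4 Il1b counts of that group, the fitted values were 6.78 in sgTgfbr2_2 and 6.35 in sgTgfbr2_1. With sgScr then at 0 counts, these depend on the fit and bound no fold change.

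**Figure D2:**
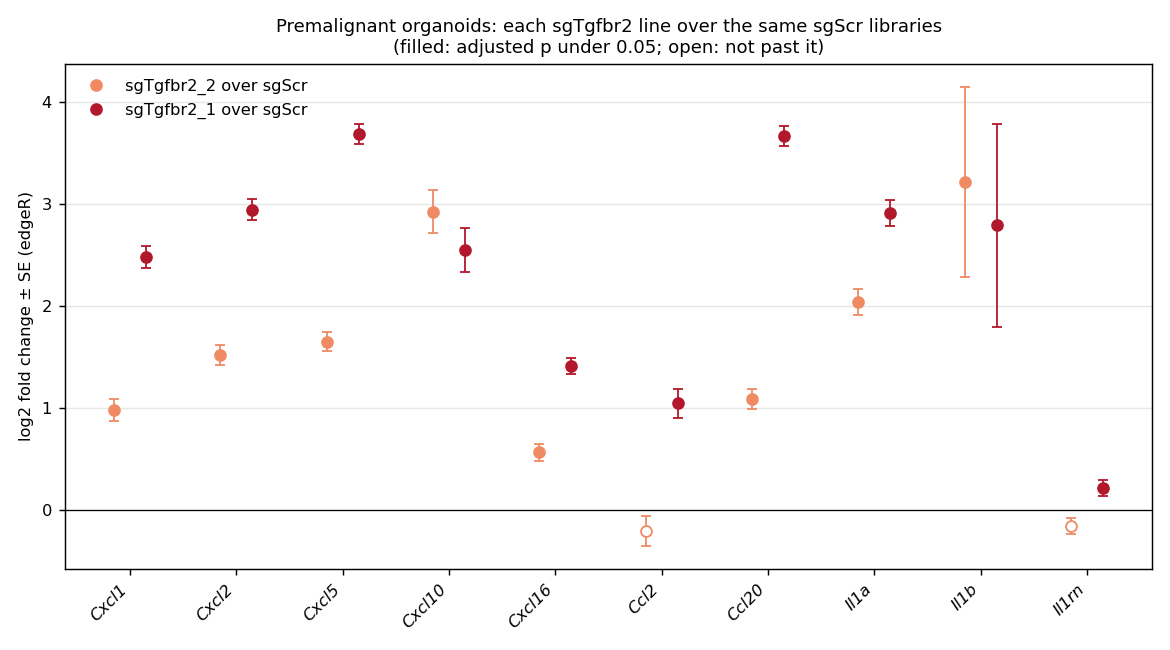
Log2 fold changes (edgeR, ± SE) of the 10 genes in premalignant sgTgfbr2_2 and sgTgfbr2_1, each over the same 3 sgScr libraries, with open points for genes not past an adjusted p of 0.05. The sgTgfbr2_1 points lie above those of sgTgfbr2_2 for 8 genes, by the most for Ccl20 (3.67 in sgTgfbr2_1 and 1.09 in sgTgfbr2_2), and below them for Cxcl10 and Il1b.

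Other genes of the pathway were read from lists. Of 29 further chemokines, 9 were tested in premalignant organoids, and 4 rose and none fell with sgTgfbr2. Cx3cl1, a membrane-bound chemokine, stood at 168 ± 50.0 CPM in sgTgfbr2 (SD, n = 4), against 59.2 ± 2.56 CPM in sgScr (SD, n = 3; adjusted p 7.95e-04). Cxcl3, a further Cxcr2 ligand that lies between Cxcl5 and Cxcl1 on chromosome 5, stood at 224 ± 16.4 CPM, against 140.9 ± 3.999 CPM (adjusted p 6.57e-04). Its log2 fold change of 0.60 ± 0.08 was below those of Cxcl1, Cxcl2 and Cxcl5. Set against sgScr by line, 5 of the 9 rose and none fell in sgTgfbr2_2, and 5 rose and 2 fell in sgTgfbr2_1. Ppbp, a Cxcr2 ligand gene next to Cxcl5, went in opposite directions in the lines, at 569.6 ± 21.2 CPM in sgTgfbr2_2 (log2 0.66 ± 0.14, adjusted p 9.32e-04) and 206 ± 26.1 CPM in sgTgfbr2_1 (log2 -0.82 ± 0.14, adjusted p 3.06e-04), against 345 ± 87.1 CPM in sgScr. Its log2 difference of 1.48 ± 0.16 between sgTgfbr2_2 and sgTgfbr2_1 (adjusted p 1.42e-05) was of the opposite sign to those of Cxcl1, Cxcl2 and Cxcl5.

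The matching leukocyte receptors were low or unread. Of 21 chemokine receptors, 3 were tested, none rose and 2 fell. Cxcr2 was 2.65 ± 0.371 CPM in sgTgfbr2 (n = 4), against 4.60 ± 0.233 CPM in sgScr (n = 3), a log2 fold change of -0.86 ± 0.20 (adjusted p 0.00781). Ccr6 had 0 counts in all 18 libraries of the series, and Cxcr3 and Cxcr6 passed the filter in no comparison. Il1r1 was 16.4 ± 4.73 CPM in sgTgfbr2_2 and 46.5 ± 4.03 CPM in sgTgfbr2_1, against 13.5 ± 0.703 CPM in sgScr. It rose in sgTgfbr2_1 (log2 1.71, adjusted p 2.90e-07) and was not called in sgTgfbr2_2 (0.22, adjusted p 0.219), and the lines differed by -1.48 (adjusted p 1.42e-05). Il1rap, the co-receptor, was 36.9 ± 6.88 CPM in sgTgfbr2, against 30.1 ± 1.29 CPM in sgScr (adjusted p 0.226). Of 17 tested genes of interleukin-1 receptors and signal transduction, 8 rose, Irak2 and Sigirr among them, and 2 fell.

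Genes that bear on the making and decay of these transcripts also changed. Counts here are for the pooled lines unless a line is named. Of 16 NF-kB subunits and inhibitors, 10 rose and none fell, with the inhibitor gene Nfkbia at 546 ± 46.6 CPM in sgTgfbr2 and 274 ± 25.2 CPM in sgScr, and Nfkbiz at 191 ± 67.1 CPM and 58.6 ± 6.68 CPM in the same order. The median log2 fold change over those 16 was 0.40. Set against sgScr by line, 7 rose and 2 fell in sgTgfbr2_2, with Rela (-0.50) among the latter. In sgTgfbr2_1, 11 rose and none fell. Between sgTgfbr2_2 and sgTgfbr2_1, 8 of the 16 were lower in sgTgfbr2_2 and none higher. Of 9 chemokine mRNA decay factors, 7 rose and none fell. Zfp36 (log2 1.34 ± 0.17) and Zfp36l1 (1.55 ± 0.22) were among them, and encode proteins that shorten the life of cytokine mRNAs. By line, 7 rose and none fell in sgTgfbr2_2, and 7 rose and 1 fell in sgTgfbr2_1. Between the lines, 3 were higher in sgTgfbr2_2, Zfp36 (0.60) and Zfp36l1 (0.75) among them, and 2 were lower. Of 12 tested genes of interleukin-1 processing and release, 7 rose and 1 fell, with Nlrp10 at 30.8 ± 3.99 CPM, against 6.76 ± 1.263 CPM, Casp4 at 39.9 ± 4.48 CPM, against 15.3 ± 0.896 CPM, and Casp8, the gene that fell, at 29.9 ± 8.24 CPM, against 62.3 ± 5.89 CPM. Tnf, an inducer of the same chemokines, was 55.4 ± 19.1 CPM in sgTgfbr2, against 16.6 ± 2.04 CPM in sgScr, and 8 of the 16 tested genes in the list of other epithelial cytokines and receptors, Tnf included, rose and 2 fell. Of 15 interferon-response genes, 6 rose, such as Irf1 and Rsad2, and 3 fell, such as Ifit2 (log2 -2.51). None of 4 tested chemokine-cutting proteases was called with the lines pooled or in sgTgfbr2_2, whereas in sgTgfbr2_1 over sgScr 1 rose and 1 fell.

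In tumor organoids most of the set was again higher with sgTgfbr2, and Ccl2 was lower. Of 9 genes tested in tumor sgTgfbr2 over tumor sgScr, 7 rose, 1 fell and Il1a was not called, where 29.8% of 15091 genes were called higher and 30.5% lower. With library totals as the scale, 6046 genes were called higher and 3361 lower, against 4492 and 4603 with TMM, and the median log2 fold change of all genes moved to 0.26, against -0.0232. The calls of the 10 genes were the same under both scales. The median over the 9 tested genes was 2.55.

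Cxcl5 and Cxcl2 were nearly absent from tumor sgScr. Cxcl5 stood at 142 and 137 CPM in sgTgfbr2, against 0.158, 0.324 and 1.84 CPM in sgScr, where it had 3, 7 and 31 counts. Its log2 fold change was 7.30 ± 0.34 (adjusted p 2.40e-14). Cxcl2 stood at 33.0 and 31.3 CPM in sgTgfbr2, against 0.158, 0 and 0.653 CPM in sgScr, with a log2 fold change of 6.70 ± 0.43 (adjusted p 6.79e-12). The sgTgfbr2 libraries were close to each other and far above every sgScr library, and the size of each fold change rests on a few counts in sgScr. Cxcl1, the third Cxcr2 ligand of the set, was low in both genotypes, at 3.53 and 4.25 CPM in sgTgfbr2, against 0.422, 0.695 and 0.475 CPM in sgScr (log2 2.55 ± 0.54, adjusted p 3.16e-04). It had 8, 15 and 8 counts in sgScr, so the size of its fold change also rests on few counts.

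The other chemokines went in different directions. Cxcl16 stood at 99.6 and 96.5 CPM in sgTgfbr2, against 9.24, 13.2 and 9.86 CPM in sgScr (log2 2.89 ± 0.17, adjusted p 1.82e-12). Ccl2 was the gene that fell, at 4.18 and 3.02 CPM in sgTgfbr2, against 7.18, 9.50 and 10.2 CPM in sgScr (log2 -1.59 ± 0.30, adjusted p 9.35e-05). Cxcl10 stood at 1.95 and 1.57 CPM in sgTgfbr2, against 0.686, 0.278 and 0.0594 CPM in sgScr. Its log2 fold change of 2.05 ± 0.78 (adjusted p 0.0272) missed the threshold without replicate 2 or 3 of sgScr (1.91 and 1.58) or replicate 1 of sgTgfbr2 (1.84). Ccl20 was not tested, with 11 and 4 counts in sgTgfbr2, against 0, 1 and 7 counts in sgScr.

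Il1b, which was barely detected in premalignant organoids, stood at 29.3 and 30.4 CPM in tumor sgTgfbr2, against 1.85, 2.595 and 1.43 CPM in tumor sgScr, a log2 fold change of 3.62 ± 0.25 (adjusted p 3.59e-11). Il1rn stood at 162.6 and 163 CPM in sgTgfbr2, against 60.0, 67.0 and 74.2 CPM in sgScr (log2 0.99 ± 0.13, adjusted p 1.20e-06). Il1a stood at 8.57 and 11.1 CPM in sgTgfbr2, against 5.38, 6.90 and 7.19 CPM in sgScr. Its groups did not overlap, but the log2 fold change of 0.31 ± 0.26 missed the threshold (adjusted p 0.313). Of the summed Il1a and Il1b counts, Il1b made up 75.3 ± 2.96% in sgTgfbr2 (SD, n = 2), against 23.1 ± 5.77% in sgScr (SD, n = 3).

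Several tissue marker lists differed between these tumor libraries. Of 18 tested immune markers, 8 rose and 5 fell, and the sums given above overlapped between genotypes. Cd14 was 266 ± 0.838 CPM in sgTgfbr2, against 19.1 ± 1.83 CPM in sgScr, and Csf3r, a neutrophil receptor, was 16.7 ± 1.84 CPM, against 1.76 ± 0.306 CPM. Ptprc was 13.9 ± 0.262 CPM, against 10.5 ± 3.03 CPM (adjusted p 0.715). Csf1r fell, at 36.9 CPM in sgTgfbr2, against 44.0 CPM in sgScr (log2 -0.54 ± 0.15, adjusted p 0.00452). Cd68 was not called, at 26.5 CPM and 26.8 CPM in the same order (adjusted p 0.125). Skeletal muscle markers summed to 231 to 276 CPM in sgTgfbr2, against 18794 to 19422 CPM in sgScr, and all 10 fell. Gastric and glandular markers summed to 28988 to 32096 CPM in sgTgfbr2, against 1.95 to 2.69 CPM in sgScr, and all 10 rose. Squamous markers summed to 31456 to 31919 CPM in sgTgfbr2, against 119337 to 128049 CPM in sgScr, with 6 of 10 higher and 4 lower. Of 10 fibroblast markers 2 rose and 5 fell, and of 8 endothelial markers none rose and 4 fell. The part of these tissues in the levels of the 10 genes was not tested.

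The wider pathway in tumor organoids was mixed. Of 23 further chemokines tested, 7 rose and 9 fell. Ppbp, the chromosome 5 neighbour of Cxcl5 that encodes a further Cxcr2 ligand, stood at 4733 ± 28.5 CPM in sgTgfbr2 (SD, n = 2), against 1.31 ± 0.126 CPM in sgScr (SD, n = 3; log2 11.53 ± 0.19). Cxcl17 stood at 45.9 ± 1.81 CPM, against 0.152 ± 0.159 CPM, and Cxcl14 at 150.2 ± 5.85 CPM, against 26.2 ± 2.08 CPM. Cxcl3 stood at 42.1 CPM in sgTgfbr2, against 0.0704 CPM in sgScr (log2 8.82 ± 0.42). These 4 are the called genes of smallest p, and the 9 that fell are not named. Of 15 receptors, 2 rose and 7 fell. Ccr2 was 2.602 ± 1.22 CPM in sgTgfbr2, against 22.6 ± 2.69 CPM in sgScr (log2 -3.41 ± 0.27), so receptor and ligand of the Ccl2 pair both fell. Cxcr2 was 10.1 ± 3.76 CPM, against 10.9 ± 0.839 CPM (adjusted p 0.156).

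The genes listed as interleukin-1 ligands outside the set, a list that also holds the binding protein gene Il18bp, fell or were not called, whereas Il1b rose. Of 8 tested, none rose and 6 fell, among them Il1f9, an epithelial interleukin-36 gene, at 57.7 ± 7.80 CPM in sgTgfbr2, against 500.3 ± 56.3 CPM in sgScr, and Il1f8, at 2.59 ± 0.0996 CPM, against 106 ± 6.44 CPM. Il1f6 was at 0.0814 ± 0.115 CPM in sgTgfbr2, against 153 ± 16.5 CPM in sgScr. Il1r1 was 49.4 ± 4.42 CPM, against 21.6 ± 1.19 CPM (log2 0.90 ± 0.16, adjusted p 3.57e-05). The decoy receptor gene Il1r2 (adjusted p 0.0571) and Il1rap (adjusted p 0.659) were not called. Of 19 receptor and signalling genes, 7 rose and 4 fell. Of 16 NF-kB genes, 10 rose and none fell, with Relb at 48.8 ± 4.12 CPM, against 6.93 ± 1.43 CPM. Of 16 other cytokine and receptor genes, 12 rose and 3 fell, of 16 processing and release genes 5 rose and 6 fell, of 9 decay factors 4 rose and 1 fell, of 18 interferon-response genes 5 rose and 9 fell, and of 5 proteases 3 rose and 2 fell. Adam10, a protease that can shed Cxcl16, was 147 ± 11.9 CPM in sgTgfbr2, against 56.0 ± 4.84 CPM in sgScr (log2 1.10 ± 0.13).

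The difference between the tumor and premalignant effects of sgTgfbr2 was tested on 12 libraries as a contrast, in which a shift of a whole table cancels. Of the 10 genes, 4 were called higher and 2 lower in the tumor effect than in the premalignant effect, where 25.0% of 15671 genes were called higher and 24.5% lower. With library totals as the scale, 4976 genes were higher and 3058 lower, against 3924 and 3838 with TMM, and the median moved to 0.20, against -0.0314. Cxcl2 differed by 4.31 ± 0.81 on the log2 scale (adjusted p 3.96e-04) and Cxcl5 by 4.30 ± 0.88 (adjusted p 8.65e-04). With 1 library left out, these ranged from 3.66 to 5.96 for Cxcl2 and from 3.81 to 5.82 for Cxcl5. Their size rests on few counts in tumor sgScr, 14 for Cxcl2 and 41 for Cxcl5 over its 3 libraries. Cxcl16 differed by 1.84 ± 0.31 (adjusted p 1.56e-04) and Il1rn by 0.94 ± 0.17 (adjusted p 3.41e-04). In the other direction, Il1a differed by -2.24 ± 0.37 (adjusted p 1.36e-04) and Ccl2 by -2.15 ± 0.51 (adjusted p 0.00262). With limma-voom, Ccl2 missed the threshold (-2.04, adjusted p 0.0578).

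So Il1a rose with sgTgfbr2 in premalignant organoids and was not called in tumor organoids, and the difference itself passed the test. For Cxcl1 (0.62 ± 0.76, adjusted p 0.533), Cxcl10 (-0.72 ± 0.67, adjusted p 0.404), Ccl20 (-1.65 ± 2.45, adjusted p 0.619) and Il1b (0.60 ± 1.37, adjusted p 0.764), the difference missed the threshold, which does not show that the stages were alike. The tumor sgScr libraries that enter this contrast carried the muscle and squamous transcripts given above.

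**Figure D3:**
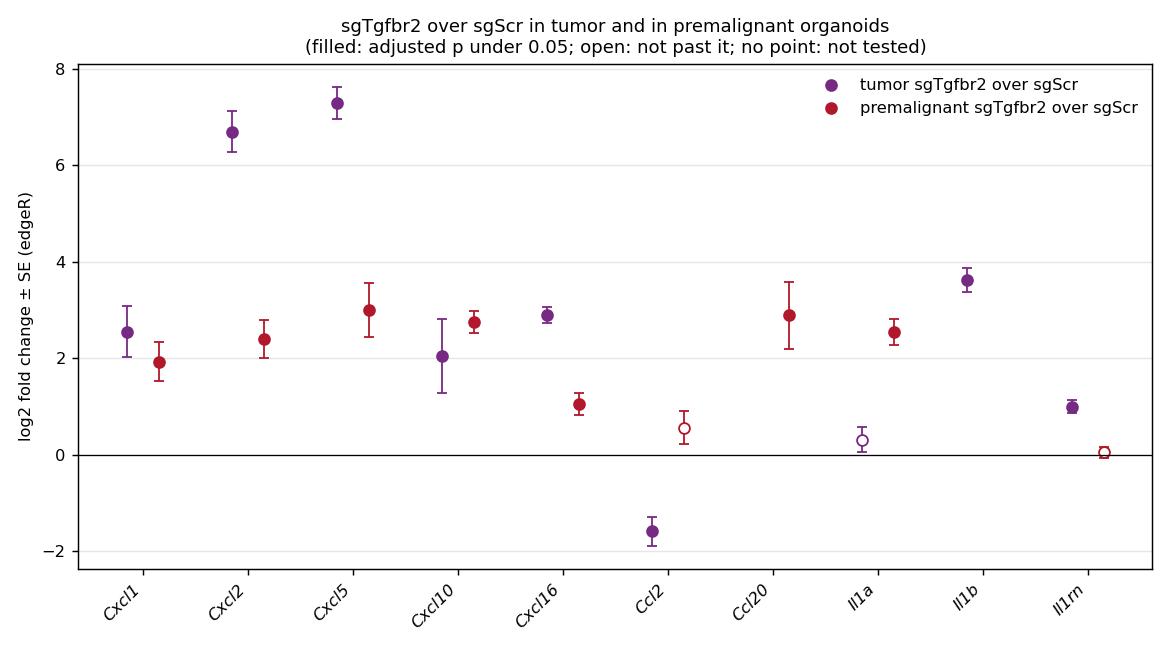
Log2 fold changes (edgeR, ± SE) of sgTgfbr2 over sgScr in tumor and in premalignant organoids, with open points for genes not past an adjusted p of 0.05 and no point where a gene was not tested. Cxcl5 (7.30 in tumor, 3.002 in premalignant) and Cxcl2 (6.70 and 2.40) lie far higher in tumor organoids, Il1a lies lower (0.31 and 2.54), and Ccl2 lies below 0 in tumor organoids only (-1.59 and 0.56).

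Under PB some chemokines fell and others rose. Of 9 genes tested in PB over vehicle, 4 fell, the 3 Cxcr2 ligands and Ccl2, and 4 rose, Cxcl10, Cxcl16, Ccl20 and, by little, Il1a. Changes were widespread, as 36.5% of 12801 genes were called higher and 36.8% lower. Calls in both directions were thus common, and the counts of the set were near those shares. With library totals as the scale, 3301 genes were called higher and 6155 lower, against 4666 and 4713 with TMM, and the median moved to -0.15, against -0.0124.

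Cxcl1 fell the most. It stood at 16.5, 18.3 and 18.03 CPM with PB, against 100.4, 109 and 106 CPM with vehicle, a log2 fold change of -2.44 ± 0.05 (adjusted p 4.42e-48). Replicates were close and the groups far apart, and 0.969% of all genes tested had a lower fold change. Cxcl2 stood at 16.9, 15.4 and 17.4 CPM with PB, against 48.6, 48.0 and 44.6 CPM with vehicle (log2 -1.37 ± 0.07, adjusted p 2.54e-28). Cxcl5 stood at 10.5, 12.7 and 9.59 CPM with PB, against 25.1, 25.5 and 25.5 CPM with vehicle (log2 -1.08 ± 0.09, adjusted p 1.33e-17). Neither gene's groups overlapped. Ccl2 stood at 5.20, 5.94 and 6.44 CPM with PB, against 23.0, 23.6 and 21.3 CPM with vehicle (log2 -1.81 ± 0.10, adjusted p 4.58e-25).

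Cxcl10, Cxcl16 and Ccl20 rose by 0.98 to 1.37 on the log2 scale. Cxcl10 stood at 19.5, 17.9 and 20.02 CPM with PB, against 7.88, 8.07 and 8.55 CPM with vehicle (log2 1.37 ± 0.10, adjusted p 2.55e-20). Cxcl16 stood at 116, 118 and 122 CPM with PB, against 57.8, 55.9 and 52.3 CPM with vehicle (log2 1.24 ± 0.04, adjusted p 3.39e-38). Ccl20 stood at 26.4, 27.8 and 24.0 CPM with PB, against 15.4, 14.6 and 13.7 CPM with vehicle (log2 0.98 ± 0.08, adjusted p 1.92e-17). In all 3 every PB library was above every vehicle library. The 4 genes whose promoter windows are printed above were chosen for these directions, as Cxcl1 and Cxcl2 fell and Cxcl10 and Ccl20 rose. All 4 windows hold the NF-kB like motif, as do those of Il1rn, which was not called under PB. Cxcl5, Cxcl16 and Ccl2 had no window, and a link between motif and direction was not tested.

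The interleukin-1 genes barely moved. Il1a stood at 23.9, 25.0 and 23.7 CPM with PB, against 22.6, 23.0 and 25.9 CPM with vehicle. The groups overlapped, and the log2 fold change of 0.16 ± 0.07 was just past the threshold (adjusted p 0.0415). It missed it without replicate 1 or 2 of either group, at 0.17 and 0.14 without PB replicates 1 and 2 and at 0.12 and 0.14 without vehicle replicates 1 and 2, and with library totals it was 0.02 (adjusted p 0.794). Il1rn stood at 156, 169 and 162 CPM with PB, against 178, 174 and 162 CPM with vehicle, with overlap. Its log2 fold change was 0.06 ± 0.03 (adjusted p 0.0706), 0.09 without vehicle replicate 1 or without PB replicate 1 (adjusted p 0.0171 in each), and -0.08 with library totals (adjusted p 0.0242), so its direction depends on the scale. Il1b was too low to test, at 0.467, 0.660 and 0.901 CPM with PB, against 0.485, 0.456 and 0.562 CPM with vehicle.

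**Figure D4:**
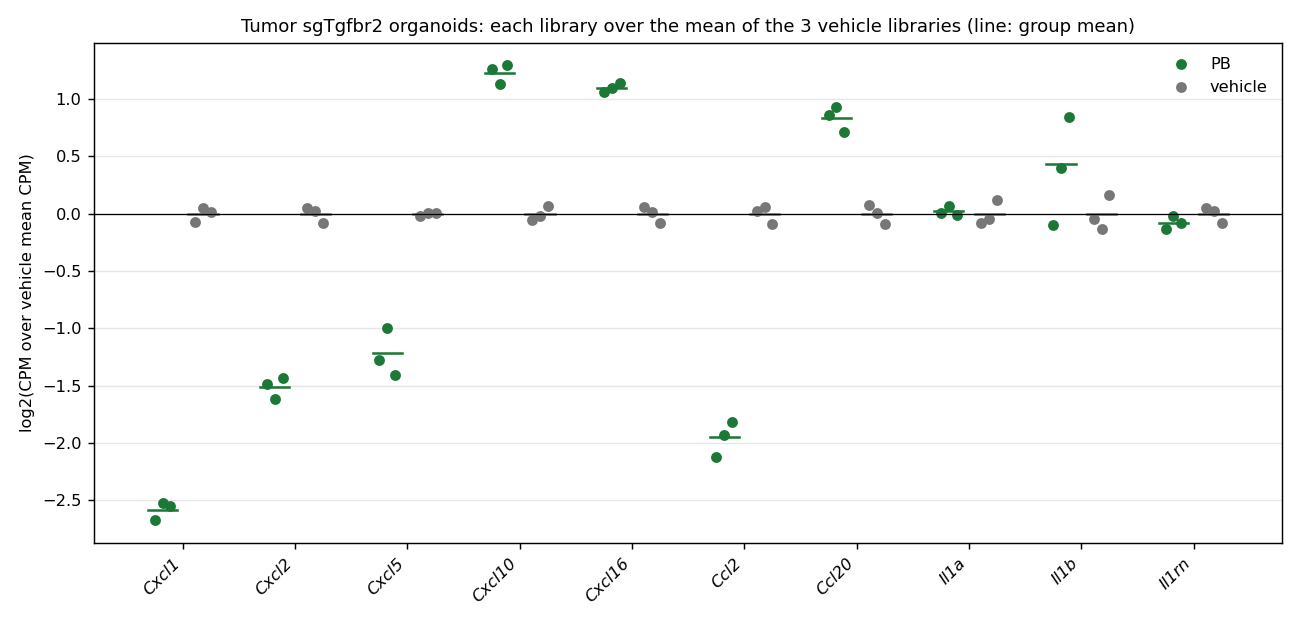
Log2 of each library's CPM over the mean CPM of the 3 vehicle libraries, for PB and vehicle libraries of each of the 10 genes, with lines for group means. Cxcl1, Cxcl2, Cxcl5 and Ccl2 lie below 0 in all 3 PB libraries, Cxcl10, Cxcl16 and Ccl20 lie above 0 in all 3, and Il1a and Il1rn overlap with vehicle.

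Immune markers were low in the PB and vehicle libraries and their sums overlapped, at 47.5 to 52.7 CPM with PB and 46.0 to 51.8 CPM with vehicle, of which 5 of 19 were tested, 3 rose and 1 fell. Tyrobp, Lyz2, Adgre1, C1qa and Csf3r had 0 counts in all 6 libraries. Summed squamous markers were 12133 to 12250 CPM with PB and 13799 to 14018 CPM with vehicle, with 5 of 10 higher and 4 lower. The sums of 3 other lists did not overlap between the groups. Summed gastric and glandular markers were 455 to 460 CPM with PB and 718 to 729 CPM with vehicle, with all 3 tested lower and Gkn2, Tff1 and Tff2 at 0 in all 6 libraries. Summed skeletal muscle markers were 7.13 to 7.92 CPM with PB and 14.7 to 16.0 CPM with vehicle, with all 3 tested lower. Summed fibroblast markers were 33.0 to 34.4 CPM with PB and 27.3 to 31.6 CPM with vehicle, with the 1 tested marker higher. Endothelial markers summed to less than 1 CPM in every library. The part of these markers' cells in the result was not tested. Tgfbr2 was 68.3 ± 1.32 CPM with PB and 96.8 ± 5.24 CPM with vehicle (SD, n = 3 each).

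The wider pathway under PB showed the same mixture. Of 7 further chemokines, 1 rose, Cxcl3 at 11.2 ± 1.19 CPM with PB, against 9.77 ± 0.908 CPM with vehicle (log2 0.34 ± 0.11), and 3 fell, among them Cx3cl1 at 67.3 ± 3.17 CPM, against 108 ± 1.99 CPM. The Cxcl3 libraries overlapped, at 10.1 to 12.5 CPM with PB and 8.72 to 10.4 CPM with vehicle. Ppbp fell slightly, to 144 ± 1.88 CPM with PB, against 182 ± 2.04 CPM with vehicle (log2 -0.20 ± 0.03, adjusted p 1.02e-08). Of these Cxcr2 ligands outside the set, Ppbp thus had the sign of Cxcl1, Cxcl2 and Cxcl5, and Cxcl3 the opposite one. Cxcr2 was 3.66 ± 0.782 CPM with PB, against 7.59 ± 0.892 CPM with vehicle (log2 -0.91 ± 0.16), and of 4 receptors tested none rose and 2 fell. Il1r1 was not called (0.10 ± 0.10, adjusted p 0.372) and Il1rap fell slightly (-0.22 ± 0.05, adjusted p 3.33e-05). Of 4 tested genes in the list of other interleukin-1 ligands, 1 rose, Il33, and 2 fell. The larger fall was that of Il18bp (-1.81 ± 0.27), which encodes a binding protein of interleukin-18 and not a ligand. Of 16 receptor and signalling genes, 6 rose and 5 fell.

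Of 16 NF-kB genes, 9 rose and 5 fell, with the subunit gene Rel at 47.5 ± 1.30 CPM with PB, against 20.6 ± 0.153 CPM with vehicle. Of 9 decay factors, 4 rose and 5 fell. Zc3h12a, which encodes a ribonuclease that cuts cytokine mRNAs, was 8.69 ± 1.24 CPM with PB, against 38.5 ± 3.76 CPM with vehicle (log2 -2.01 ± 0.09), and Zfp36 was 190.4 ± 2.58 CPM, against 364 ± 7.43 CPM. Of 15 other cytokine and receptor genes, 5 rose and 6 fell. Il23a was 34.4 ± 0.646 CPM with PB, against 9.03 ± 1.43 CPM with vehicle, Tslp was 96.9 ± 3.95 CPM, against 46.8 ± 1.20 CPM, and Tnf was 17.5 ± 1.25 CPM, against 36.6 ± 1.11 CPM. Cxcl10 rose while most interferon-response genes did not: of 18 tested, 1 rose and 14 fell, with a median log2 fold change of -0.45, and Isg15 was 23.6 ± 1.55 CPM with PB, against 56.4 ± 0.247 CPM with vehicle. Of 11 processing and release genes, 2 rose and 6 fell, with Nlrp10 at 1.93 ± 0.360 CPM, against 19.5 ± 1.44 CPM. Of 2 tested proteases 1 rose, Adam17 (0.18 ± 0.03). The Adam17 libraries overlapped, with means of 136 CPM with PB and 132 CPM with vehicle.

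The share of Cxcl1, Cxcl2 and Cxcl5 in the transcripts of the 7 chemokines of the set shows these changes together. Ppbp and Cxcl3, Cxcr2 ligand genes outside the set, are not in it, so it is no share of all Cxcr2 ligands. With PB, Ppbp stood at 144 CPM and the 3 genes summed to 45.1 CPM, against 182 and 178 CPM with vehicle. Per kilobase, Cxcl1, Cxcl2 and Cxcl5 made up 77.4 ± 0.0569% of the 7 chemokines in sgTgfbr2_2 and 79.9 ± 0.893% in sgTgfbr2_1 (SD, n = 2 each), against 62.2 ± 4.73% in premalignant sgScr (SD, n = 3). They made up 71.7 ± 0.510% in tumor sgTgfbr2 (SD, n = 2), against 6.33 ± 4.11% in tumor sgScr (SD, n = 3). The tumor sgScr share ranged from 3.85 to 11.1%. It rests on few counts, 31 for Cxcl1, 14 for Cxcl2 and 41 for Cxcl5 over the 3 libraries. With PB the 3 genes made up 24.6 ± 0.361%, against 64.0 ± 1.14% with vehicle (SD, n = 3 each). In each comparison the libraries of the groups did not overlap in this share. Cxcl5 alone accounted for 40.2% in sgTgfbr2_2, 49.0% in sgTgfbr2_1 and 26.7% in premalignant sgScr.

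The ratio of antagonist to agonist transcripts, Il1rn over the sum of Il1a and Il1b per kilobase, was 0.700 ± 0.00230 in sgTgfbr2_2 and 0.500 ± 0.0257 in sgTgfbr2_1 (SD, n = 2 each), against 3.29 ± 0.640 in premalignant sgScr (SD, n = 3). It was 1.43 ± 0.0877 in tumor sgTgfbr2 (SD, n = 2), against 2.83 ± 0.296 in tumor sgScr (SD, n = 3). In both pairs every sgTgfbr2 library was below every sgScr library. The size of this ratio depends on the exon length taken for Il1rn. As a ratio of counts, with no length in it, the values were 1.96 ± 0.00590 in sgTgfbr2_2 and 1.402 ± 0.0719 in sgTgfbr2_1, against 9.24 ± 1.79 in premalignant sgScr, and 4.11 ± 0.257 in tumor sgTgfbr2, against 7.99 ± 0.824 in tumor sgScr. Il1b made up at most 1.79% of the agonist counts in any premalignant library, and most of them in tumor sgTgfbr2, as given above. With PB the ratio was 2.33 ± 0.0396, against 2.52 ± 0.300 with vehicle (SD, n = 3 each), and as a ratio of counts 6.53 ± 0.113 with PB, against 7.08 ± 0.841 with vehicle. The groups overlapped on both scales.

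**Figure D5:**
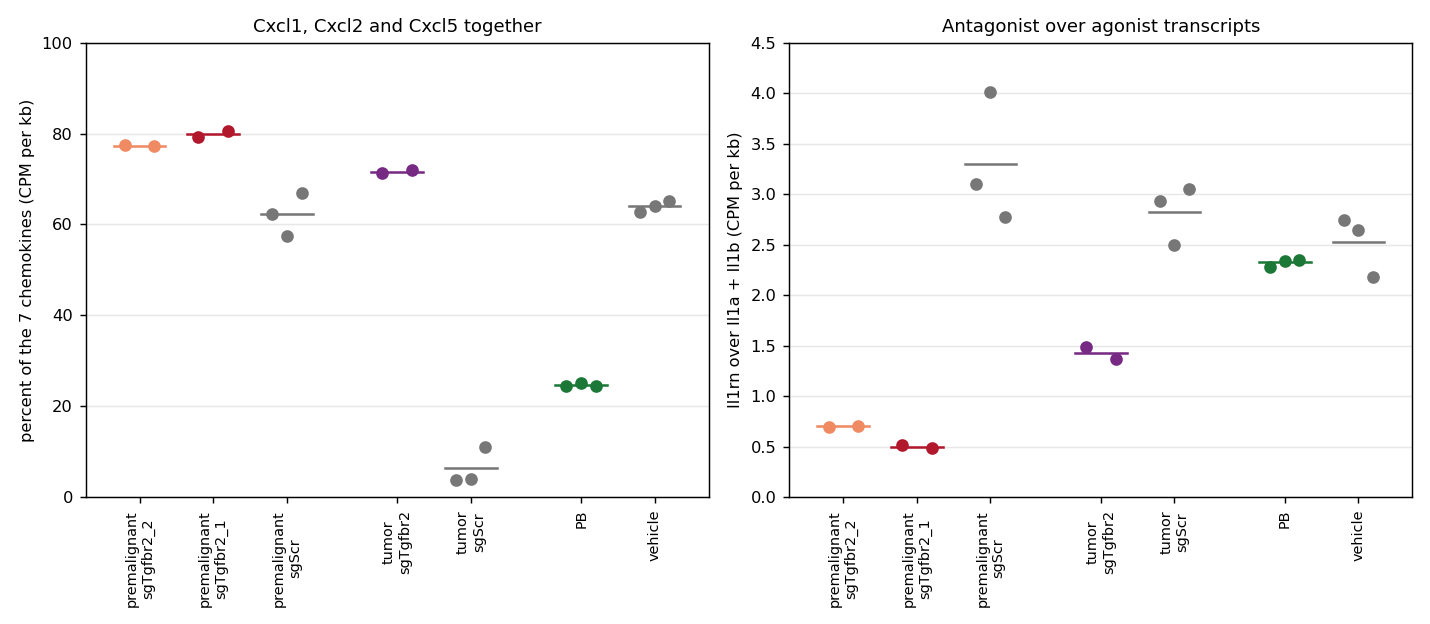
Left, the percent of the 7 chemokines' CPM per kb that came from Cxcl1, Cxcl2 and Cxcl5, and right, the ratio of Il1rn to Il1a plus Il1b in CPM per kb, with points for libraries and lines for group means. The share falls to 24.6% with PB, against 64.0% with vehicle, and the ratio is 0.482 to 0.702 in premalignant sgTgfbr2 libraries, against 2.78 to 4.01 in premalignant sgScr libraries.

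The genes whose pattern over the 7 premalignant libraries was most like that of a chemokine or interleukin gene were ranked by Pearson's r of log2(CPM + 1), over 10440 genes with a mean of at least 5 CPM. These libraries form 3 clusters, the lines and sgScr, so the values describe only the order of those clusters. Cxcl1 was closest to Sema3c (0.998), Csf3 (0.998) and Pstpip2 (0.997), Cxcl5 to Sema3c (0.998), Runx2 (0.998) and Cxcl16 (0.998), and Cxcl16 to Csf3 (0.9996), Sema3c (0.999) and Sprr2e (0.998). Cxcl2 was closest to Atp1b1, Nos2 and Pptc7, Ccl20 to Pea15a, Mtus2 and Spp1, and Il1a to Ltf, Eprs and Vasn. Cxcl10, with its own order of the lines, was closest to Sord, Adck3 and Six4 and had an r of 0.773 with Cxcl1. Ccl2 was closest to Dr1, Pou3f1 and Adam17, and Il1rn to B230219D22Rik, Cdk5 and Dact2.

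In the authors' deposited table, 8 of the 10 genes passed an adjusted p of 0.05 in premalignant organoids, the 7 called here and Il1b (log2 fold change 3.05, adjusted p 0.0174). The authors' deposited table had 7 past the threshold in tumor organoids, all called here, and gave Cxcl10 an adjusted p of 0.0630. For PB, the authors' deposited table also had 7, all called here, and gave Il1a an adjusted p of 0.132.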

How the data were processed

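Per the labels' protocols, Trizol RNA of the organoids was made into Illumina libraries. The authors deposited 3 tables with whole-number counts per gene and library, normalized signal values, log2 fold changes, test scores and p-values, per the file headers. The submitters' processing notes name STAR 2.6.0a, DESeq2 1.26.0 and mm10. Which counter, strand setting and annotation were used is not given in the sources used here. Of the deposited columns, log2 fold changes and adjusted p-values were read only for the 10 genes, and the 18 normalized signal columns and the scores were not used.

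Counts were analysed with R 4.3.3 and edgeR 4.0.16 (filterByExpr with a minimum count of 10, TMM, two-sided quasi-likelihood F test, Benjamini-Hochberg adjustment over all genes tested, threshold 0.05), within each table, and over both tables for the difference between stages. The SE is the log2 fold change over the square root of F. A CPM is a count scaled to the library total, and a CPM per kb divides it by the exon length of GENCODE M21 (GRCm38). Levels of different tables were not tested against each other. Replicates differed by more than sampling noise (chi-square per degree of freedom 1.51 to 21.3 within groups and lines), and none were merged. Promoter windows are RefSeq's, GRCm38.p6. The 10 genes, the other lists and the tests were chosen with earlier results of these data known. Beside the 10 genes, the text names, of each list and comparison, at most the 4 called genes of smallest p, Tgfbr2, fixed receptors and markers, and the 3 genes of most similar pattern. The tests were checked on data simulated with independent libraries and no line effect. The check thus leaves out the difference between lines that enters the pooled premalignant and stage tests. Alternatives were DESeq2 1.42.0, limma-voom (limma 3.58.1), library totals as the scale, no filter or one of 1 CPM, a replicate block, the line as a correlated block, TMM-scaled CPM and each library left out in turn.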

Additional observations from a re-analysis of the deposited data

Results flagged for a closer look

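The 2 numbered sgTgfbr2 lines of the premalignant organoids differed, by a direct test of sgTgfbr2_2 over sgTgfbr2_1, in 8 of the 10 genes. The log2 differences were -1.50 for Cxcl1, -1.43 for Cxcl2, -2.03 for Cxcl5, -0.85 for Cxcl16, -1.25 for Ccl2, -2.58 for Ccl20, -0.88 for Il1a and -0.37 for Il1rn, with edgeR adjusted p-values of at most 0.00615. All 8 were lower in sgTgfbr2_2, where 13.1% of all 13438 genes tested were called lower and 13.2% higher.

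The effect of sgTgfbr2 differed between tumor and premalignant organoids, by a test of the difference, in 6 of the 10 genes. Over all 15671 genes tested, 25.0% were called higher and 24.5% lower, so such a difference was common. The log2 difference of the effects was 4.31 for Cxcl2, 4.30 for Cxcl5, 1.84 for Cxcl16 and 0.94 for Il1rn, which had the larger effect in tumor organoids, and -2.15 for Ccl2 and -2.24 for Il1a. The edgeR adjusted p-values were at most 0.00262. The size of the Cxcl2 and Cxcl5 differences rests on few counts in tumor sgScr, 14 and 41 over its 3 libraries. Ccl2 missed the threshold with limma-voom (-2.04, adjusted p 0.0578). Stage and deposited table coincide, so a difference between tables that acts on 1 genotype cannot be told apart from stage.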

How the results depend on the processing

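Most calls on the 10 genes kept their direction and their side of the threshold: 62 of 63 values over the 7 other settings in the pooled premalignant comparison, 59 of 59 between the lines, 53 of 54 in tumor organoids, 51 of 54 under PB and 59 of 60 for the stage difference. The labels do not say that replicate numbers are shared between groups, and same-numbered libraries deviated together in some pairs and not in others (r of 0.22 and -0.15 for sgTgfbr2_1 and sgScr, -0.03 and 0.37 for sgTgfbr2_2 and sgScr, -0.03 between the lines, 0.03 and -0.24 in tumor organoids, 0.0028, -0.0039 and -0.0049 for PB and vehicle, where 1 of 3 PB libraries was closest to its own number, as were 1 of 2 libraries of each premalignant line and none of the tumor sgTgfbr2 libraries). With the replicate block, genes called numbered 4739 (6057 without it) in premalignant organoids, 8015 (6915) for sgTgfbr2_1, 8660 (7814) for sgTgfbr2_2, 5365 (3535) between the lines, 7607 (9095) in tumor organoids, 9365 (9379) under PB and 7321 (7762) for the stage difference. Under the block, 1 of the 10 genes was called lower in sgTgfbr2_2 (Ccl2, -0.33), and 3 calls were lost, premalignant Ccl20 (2.86, adjusted p 0.0677), Il1b in sgTgfbr2_1 (2.25) and tumor Cxcl10 (1.66). With limma-voom, 1 gene instead of 2 was lower in the stage difference, as Ccl2 missed the threshold (-2.04, adjusted p 0.0578). Treating each line as a correlated block (limma-voom, correlation 0.682) called 4617 genes, and the 7 genes stayed called. Under PB, Il1a was lost with DESeq2 (0.17, adjusted p 0.102) and with library totals (0.02), and Il1rn turned to -0.0771 with library totals. The cause was not tested.

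With 1 library left out, genes called ranged from 4043 to 5997 in the pooled premalignant comparison (lower than with all libraries in each), 4533 to 7786 for sgTgfbr2_1 (4533 without its replicate 2), 1448 to 1968 between the lines, 8014 to 8648 in tumor organoids, 9043 to 9106 under PB and 6861 to 7714 for the stage difference. Genes of the set called lower in sgTgfbr2_2 ranged from 0 to 1. Directions turned for genes that were not called: pooled Il1rn ranged from -0.0341 to 0.12, Il1b between the lines from -0.46 to 0.92, and in the stage difference Il1b from -2.82 to 1.20, Cxcl10 from -1.17 to 0.20 and Ccl20 from -2.55 to 0.63. Of 70 mean levels, 17 moved by 1 SD or more with TMM-scaled CPM, by a factor of 0.886 to 1.09. Depth limits Il1b in premalignant and PB libraries, Ccl20 in tumor libraries, and Cxcl1, Cxcl2, Cxcl5 and Cxcl10 in tumor sgScr.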

Other observations

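The vehicle libraries and the tumor sgTgfbr2 libraries carry the same genotype and tumor label but stand in different deposited tables, and their levels of these genes were far apart. Cxcl1 was 105 ± 4.47 CPM in vehicle (SD, n = 3) and 3.89 ± 0.513 CPM in tumor sgTgfbr2 (SD, n = 2). Ccl20 was 14.6 ± 0.860 CPM in vehicle and 0.410 ± 0.264 CPM in tumor sgTgfbr2. In the other direction, Cxcl5 was 25.4 ± 0.242 CPM in vehicle and 139.9 ± 3.39 CPM in tumor sgTgfbr2, Il1b was 0.501 ± 0.0549 CPM and 29.9 ± 0.766 CPM in the same order, and the Cxcr2 ligand gene Ppbp 182 ± 2.04 CPM and 4733 ± 28.5 CPM. Il1rn, at 171 ± 8.23 CPM and 163 ± 0.384 CPM, was close in level. The summed gastric and glandular markers were 718 to 729 CPM in vehicle and 28988 to 32096 CPM in tumor sgTgfbr2, and the summed immune markers 46.0 to 51.8 CPM and 1623 to 1720 CPM. No test was made across tables, and the part of the marked tissues and of the culture conditions in these levels was not tested.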
